A study of Mus musculus with 24 samples.

Results

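The genes described here encode enzymes that make nucleotides or supply the one-carbon units used in making them. The set was a list of 34 genes, of which 33 were measured by a probe set carrying a single gene symbol, out of 19938 genes measured in that way. Impdh2 was not analysed here. Each gene was represented by its probe set with the highest mean over all 24 arrays. The list was made by function, with earlier results of these data known. The levels given are log2 expression values, so that a difference of 1 is a doubling, and levels of different genes are not compared because probe sets differ in brightness.

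RNA of 24 mouse samples was measured on Affymetrix gene arrays in a study of how the transcription factor Pax5 and the BCR/ABLp190 fusion oncogene bear on metabolism in precursor B cell leukaemia. Tumour-bearing bone marrow came from 7 mice that carried the oncogene and were heterozygous for Pax5 (Sca1-BCR/ABLp190+Pax5+/-, called Pax5+/- leukaemias) and from 2 mice for which the oncogene alone was listed (Sca1-BCR/ABLp190, called BCR/ABLp190 leukaemias). Their controls were B220+ cells, B cells from the marrow of 5 wild-type mice. Preleukaemic cells of the pro-B and pre-B stages, from marrow, came from 3 Sca1-BCR/ABLp190+Pax5+/- samples (Pax5+/- precursors), 3 Sca1-BCR/ABLp190 samples (BCR/ABLp190 precursors) and 4 wild-type samples (wild-type precursors). The name Sca1 is that of the promoter driving the transgene, which directs it to stem and progenitor cells, and all 4 groups with the oncogene carried it. The labels state neither the age of the mice nor how the Pax5 allele was made. No sort is named for the tumour-bearing marrow, and the design text speaks of 3 wild-type mice for the precursors while 4 samples carry that label, all of which were used. The labels call the replicates biological.

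Purine nucleotides are built stepwise on phosphoribosyl pyrophosphate (PRPP) until inosine monophosphate is formed, which then branches to GMP and AMP. Pyrimidines are made as a free ring that is joined to PRPP, and CTP is formed from UTP. Ribonucleotide reductase converts ribonucleotides to deoxynucleotides, and thymidylate synthase makes the thymidine nucleotide with a one-carbon unit carried by folate. Serine is the main donor of these units, in the cytosol and in mitochondria, and cells that replicate DNA, such as dividing pro-B and pre-B cells, draw on all of these routes.

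The samples differed in more than these genes. Of 10 B lineage markers, 9 were lower in the Pax5+/- leukaemias than in B220+ cells and all 10 were lower in the BCR/ABLp190 leukaemias. Of the other cell types, 11 of 12 monocyte and macrophage markers and 9 of 10 stromal and endothelial markers were higher in the Pax5+/- leukaemias than in B220+ cells, and 7 of 12 and 9 of 10 in the BCR/ABLp190 leukaemias. Megakaryocyte and platelet markers were higher for 5 of 7 and 3 of 7 genes, at a mean of 7.99 to 10.92 and 9.15 to 10.74 against 7.15 to 7.49 in B220+ cells. Limma called 0 and 1 of 7 erythroid markers, with 1 and 4 at an unadjusted p under 0.05, and their mean reached 11.16 and 12.20 against at most 8.17. In the BCR/ABLp190 leukaemias 9 of 13 neutrophil markers were higher than in B220+ cells. The mean level of that list was 11.42 and 12.04 on their arrays. It was 6.94 to 9.70 in B220+ cells and 6.91 to 9.39 in the Pax5+/- leukaemias. The part of cell composition in the results below was not tested, and in bulk RNA a changed share of a cell type and a changed amount of RNA per cell cannot be told apart. Xist, read as a mark of female samples, was high on all 9 wild-type arrays, on 3 of 7 Pax5+/- leukaemias, on 1 of 2 BCR/ABLp190 leukaemias, on 1 of 3 Pax5+/- precursors and on 0 of 3 BCR/ABLp190 precursors. Prps1, Prps2 and Ctps2 lie on the X chromosome.

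Over the 6 groups the members were generally highest in leukaemic marrow and lowest in precursors that carried the oncogene. By group mean, 15 of 33 members were highest in the BCR/ABLp190 leukaemias, 8 in the Pax5+/- leukaemias and 7 in wild-type precursors. The lowest mean was in the BCR/ABLp190 precursors for 20 members and in B220+ cells for 7. The 7 members highest in wild-type precursors were Prps1, Prps2, Impdh1, Psat1, Dut, Dck and Rrm2. The 8 members highest in the Pax5+/- leukaemias were Adsl, Atic, Gmps, Adss, Umps, Nme1, Phgdh and Shmt1. The groups overlapped for many genes, and which of these differences passed a test is given below.

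**Figure D1:**
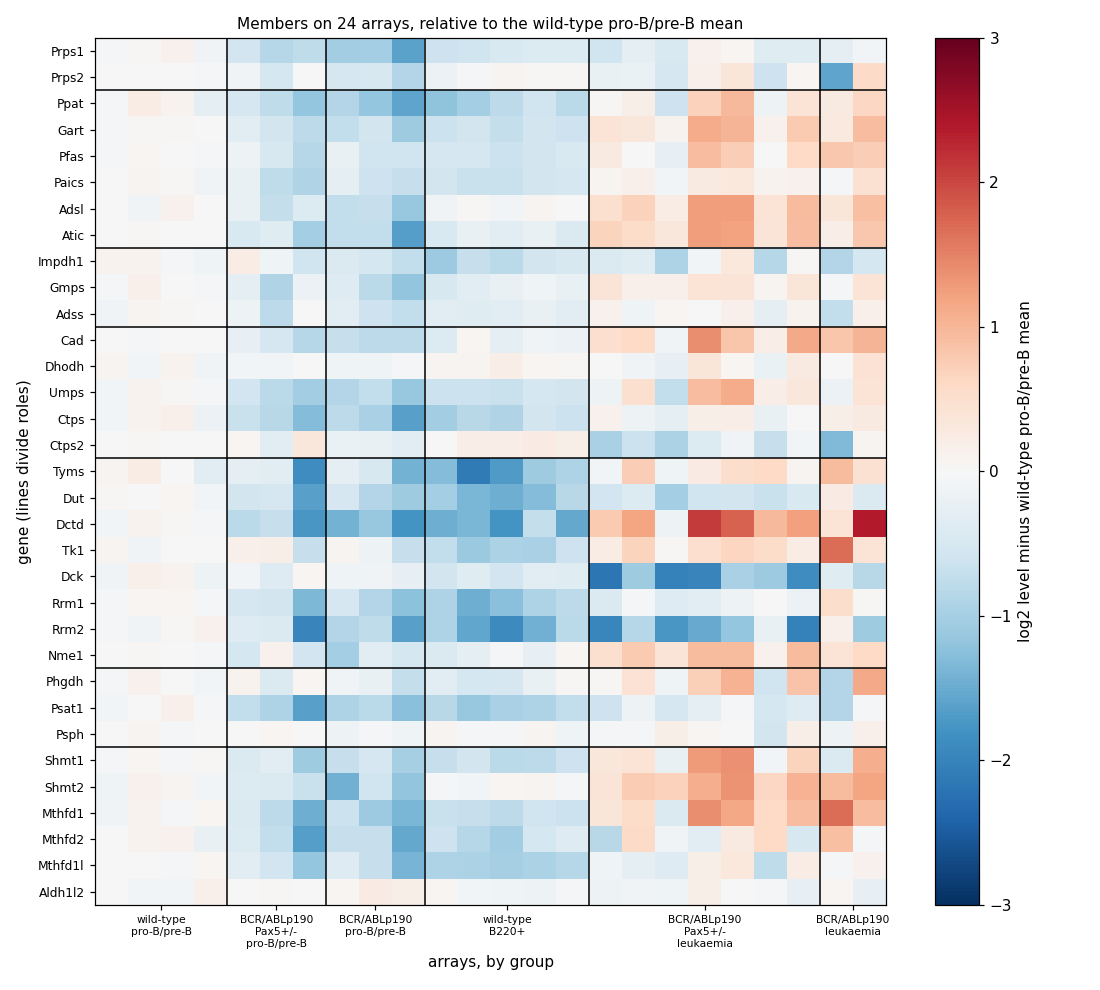
Log2 level of each of the 33 members (rows, ordered by role with lines between roles) on each of the 24 arrays (columns, by group), minus the mean of the wild-type pro-B and pre-B arrays, on a colour scale centred on 0. Values run from -2.17 to 2.39, with 95 of 99 values of the 3 BCR/ABLp190 precursor arrays below 0 (blue). Of 297 values on the 9 leukaemia arrays 122 lie below 0, among them all 9 of Dck and Psat1 and 8 of 9 of Ctps2, Dut and Rrm2.

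Promoter windows of the measured members were searched for recognition motifs, and some of these windows are shown. Whether the motifs bear on the levels was not tested. The windows are RefSeq sequences of assembly GRCm38.p6 from 250 bases before to 50 bases after an annotated start of a gene. They are written 5′ to 3′ on the gene's own strand, and 30 of 33 members had at least 1 window. Letters searched on both strands were CACGTG, the E-box bound by MYC and MAX, and TTCCCGCC, a motif bound by E2F factors that reads GGCGGGAA on the other strand. Capitals mark those motifs below. Paics and Ppat, which encode 2 enzymes of the purine route, start 276 bases apart on chromosome 5 and are read in opposite directions. Their listed spans (76951302 to 76967509 and 76913249 to 76951578) overlap at these starts, so each window lies inside the span of the other gene. The windows (chr5:76951052-76951351 on the plus strand and chr5:76951529-76951828 on the minus strand) are shown first.
Paics: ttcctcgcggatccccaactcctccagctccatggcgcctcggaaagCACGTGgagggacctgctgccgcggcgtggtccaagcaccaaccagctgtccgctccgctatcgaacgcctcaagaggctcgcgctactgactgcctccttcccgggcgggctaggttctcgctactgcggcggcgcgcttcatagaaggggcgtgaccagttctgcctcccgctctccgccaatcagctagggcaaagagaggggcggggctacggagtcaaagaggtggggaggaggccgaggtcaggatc
Ppat: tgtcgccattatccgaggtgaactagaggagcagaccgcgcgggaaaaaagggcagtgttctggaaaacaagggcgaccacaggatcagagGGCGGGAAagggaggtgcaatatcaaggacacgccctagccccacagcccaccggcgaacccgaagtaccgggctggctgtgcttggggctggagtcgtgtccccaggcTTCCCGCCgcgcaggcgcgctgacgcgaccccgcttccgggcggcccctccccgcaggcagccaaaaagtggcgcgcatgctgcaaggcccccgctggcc
The windows of Atic (chr1:71556906-71557205, plus strand) and Tyms (chr5:30073576-30073875, minus strand) are shown because they hold an E-box 7 and 61 bases before the start, on genes of the purine and thymidylate routes.
Atic: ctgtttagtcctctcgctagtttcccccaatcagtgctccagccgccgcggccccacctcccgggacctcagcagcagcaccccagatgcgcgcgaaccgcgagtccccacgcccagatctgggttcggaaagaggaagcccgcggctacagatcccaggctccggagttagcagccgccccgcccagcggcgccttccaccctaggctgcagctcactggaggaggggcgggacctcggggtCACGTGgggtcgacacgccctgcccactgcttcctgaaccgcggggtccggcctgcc
Tyms: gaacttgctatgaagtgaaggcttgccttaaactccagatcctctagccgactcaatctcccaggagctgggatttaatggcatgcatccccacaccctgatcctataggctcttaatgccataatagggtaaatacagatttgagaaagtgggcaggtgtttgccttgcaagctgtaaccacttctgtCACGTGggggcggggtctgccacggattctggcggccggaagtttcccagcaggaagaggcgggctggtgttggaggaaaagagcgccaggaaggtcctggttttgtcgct
The windows of Rrm1 (chr7:102441445-102441744, plus strand) and Mthfd1 (chr12:76254982-76255281, plus strand) are shown as E2F examples from the deoxynucleotide and folate genes. The Mthfd1 window lies inside the listed span of that gene (76254406 to 76319820) and not at its outermost start.
Rrm1: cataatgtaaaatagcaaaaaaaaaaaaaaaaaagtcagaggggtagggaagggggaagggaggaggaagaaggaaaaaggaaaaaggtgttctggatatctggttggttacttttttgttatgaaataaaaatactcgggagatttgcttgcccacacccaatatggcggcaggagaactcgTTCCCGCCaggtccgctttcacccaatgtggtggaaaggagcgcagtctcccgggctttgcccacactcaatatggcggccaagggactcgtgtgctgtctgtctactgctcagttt
Mthfd1: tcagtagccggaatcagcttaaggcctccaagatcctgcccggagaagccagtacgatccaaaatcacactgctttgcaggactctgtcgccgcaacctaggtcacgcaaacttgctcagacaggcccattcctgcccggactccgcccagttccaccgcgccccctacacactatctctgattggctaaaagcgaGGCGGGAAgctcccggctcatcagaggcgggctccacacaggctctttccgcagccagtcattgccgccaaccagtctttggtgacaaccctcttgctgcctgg
The E-box was present in 5 of 38 windows of members (13.2%), those of Atic, Nme1, Paics and Tyms, and in 7.15% of all 32851 windows. The E2F letters were present in 4 of 38 windows (10.5%), those of Mthfd1, Ppat, Prps1 and Rrm1, and in 2.19% of all windows. TGATGNAA, bound by ATF4, was in 1 of 38 windows (2.63%), that of Prps1, and in 3.97% of all windows. No 2 matches overlapped in the windows shown. A match describes these letters and not binding.

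In the Pax5+/- leukaemias 21 of 33 members were higher and 2 were lower than in B220+ cells. Of all 19938 genes, 12.9% passed as higher, 18.9% as lower and 31.8% either way. The median member difference was 0.77 on the log2 scale, and that of all genes was -0.06. Of the genes called, 40.5% were higher, against 16.4% after centring each array on its median and 54.1% after cyclic loess, where the members called were 21 higher and 2 lower and 23 higher and 2 lower. Median centring moved the median of all genes to -0.20. The arrays of both groups did not overlap for 19 of 33 members, while 20.1% of all genes did not overlap. The BCR/ABLp190 leukaemias, set against the same B220+ arrays, had 18 members higher (9.48% of all genes) and 0 lower, and 22 members did not overlap (43.4% of all genes). These values came with a median of 0.84 against -0.07 for all genes and with 21.4% of all genes passing, of which 44.4% were higher (19.1% after median centring and 56.5% after cyclic loess). Without BCR/ABLp190 leukaemia 2 the members called were 10 higher and 3 lower (Prps2, Adss and Ctps2), with a median of 0.53, and array weights gave 11 higher. Leaving out either BCR/ABLp190 leukaemia leaves a group of 1, here and below, which is assumed to vary like the other groups. These comparisons share their controls, so their values are given side by side.

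All 6 genes of inosine monophosphate synthesis rose in the Pax5+/- leukaemias. They encode the committed PRPP amidotransferase (Ppat), the trifunctional Gart, Pfas, Paics, adenylosuccinate lyase (Adsl) and the final transformylase and cyclohydrolase Atic. Gart had log2 levels of 9.93, 10.23 and 10.94 (lowest, median and highest of 7) in the Pax5+/- leukaemias, 10.12 and 10.75 in the BCR/ABLp190 leukaemias, and 9.19, 9.27, 9.12, 9.28 and 9.20 in B220+ cells. No leukaemic array reached down to the B220+ range. The difference of Gart was 1.17 ± 0.19 (SE), or 2.25-fold, with an adjusted p of 0.000449 from limma across all genes, and 1.23 ± 0.27 in the BCR/ABLp190 leukaemias (adjusted p = 0.00608). Paics had the smallest p of the group, with a difference of 0.73 ± 0.09 (adjusted p = 7.28e-05), and Atic differed by 1.09 ± 0.17 (adjusted p = 0.000445). Adsl rose by 0.77 ± 0.18 in the Pax5+/- leukaemias, and its difference of 0.64 ± 0.26 in the BCR/ABLp190 leukaemias did not pass (adjusted p = 0.0964), although its arrays did not overlap.

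Of the genes before this route and on the branches after it, 1 of 5 passed. Prps1 and Prps2, which make PRPP, differed by 0.23 ± 0.12 and -0.13 ± 0.29 and neither passed. Gmps, which forms GMP, was the single branch gene that rose, at 9.94, 10.23 and 10.27 (lowest, median, highest) in the Pax5+/- leukaemias against 9.39, 9.55, 9.64, 9.74 and 9.64 in B220+ cells. The ranges were apart, and the difference was 0.54 ± 0.09 (adjusted p = 0.000773). Impdh1, the first enzyme towards GMP, differed by 0.39 ± 0.21 (adjusted p = 0.161) and Adss, which starts the AMP branch, by 0.32 ± 0.13 (adjusted p = 0.0691).

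In pyrimidine synthesis 3 of 5 genes rose and 1 fell. Cad, which carries the first 3 activities of the route, rose by 0.83 ± 0.22 (adjusted p = 0.0114), and by 1.11 ± 0.31 in the BCR/ABLp190 leukaemias (adjusted p = 0.0237). Umps, which makes uridine monophosphate, had levels of 8.46, 9.53 and 10.30 (lowest, median, highest) in the Pax5+/- leukaemias against 8.55, 8.55, 8.53, 8.67 and 8.64 in B220+ cells. A single leukaemic array, number 3, lay below the B220+ range, and the difference was 0.91 ± 0.26 (adjusted p = 0.0185). Dhodh, the mitochondrial enzyme between them, lay at 7.37 ± 0.23 (SD, n = 7) and 7.45 ± 0.07 (SD, n = 5), and its difference of -0.08 had a 95% interval from -0.32 to 0.17.

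The 2 CTP synthases moved in opposite directions. Ctps rose from 7.33, 7.53, 7.47, 7.83 and 7.72 in B220+ cells to 8.08, 8.35 and 8.57 (lowest, median, highest) in the Pax5+/- leukaemias, a difference of 0.77 ± 0.11 (adjusted p = 0.000192). Ctps2 fell from 10.18, 10.38, 10.40, 10.45 and 10.38 to 9.22, 9.56 and 10.12, a difference of -0.71 ± 0.23 (adjusted p = 0.0298). Neither pair of groups overlapped. The call for Ctps2 was lost in 6 of the 12 fits that each left out 1 array. In the BCR/ABLp190 leukaemias Ctps was 8.55 and 8.64 and passed, while Ctps2 was 8.86 and 10.29 and did not (adjusted p = 0.104).

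Of 8 deoxynucleotide genes 6 rose and 1 fell. Dctd, a deaminase that turns dCMP into dUMP, the substrate of thymidylate synthase, showed the largest difference of any member. It lay at 7.35, 7.44, 7.01, 8.11 and 7.29 in B220+ cells, at 8.65, 9.99 and 10.91 (lowest, median, highest) in the Pax5+/- leukaemias and at 9.23 and 11.20 in the BCR/ABLp190 leukaemias. No leukaemic array overlapped with B220+ cells. The differences were 2.50 ± 0.39, or 5.66-fold (adjusted p = 0.000428), and 2.78 ± 0.56, or 6.87-fold (adjusted p = 0.00409). Tyms, thymidylate synthase, rose by 1.71 ± 0.22 (adjusted p = 0.000101) and the thymidine kinase Tk1 by 1.29 ± 0.19 (adjusted p = 0.000255). Nme1, a nucleoside diphosphate kinase, rose by 0.85 ± 0.15 and Dut, which removes dUTP, by 0.59 ± 0.14.

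Of the ribonucleotide reductase subunits, Rrm1 passed and Rrm2 did not. Rrm1, the large subunit, had levels of 10.64, 10.11, 10.31, 10.66 and 10.79 in B220+ cells and 11.14, 11.39 and 11.56 (lowest, median, highest) in the Pax5+/- leukaemias. The ranges were apart, and the difference was 0.85 ± 0.13 (adjusted p = 0.000328). Rrm2, the small subunit made in S phase, lay at 9.60, 10.12 and 11.40 in the Pax5+/- leukaemias and between 9.71 and 10.81 in B220+ cells. Its difference of -0.02 had a 95% interval from -0.74 to 0.71. Whether Rrm1 and Rrm2 differed from each other was not tested.

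Dck, the kinase that salvages deoxycytidine and activates cytarabine, fell in the Pax5+/- leukaemias. Its levels were 8.49, 9.59, 8.63, 8.68, 9.70, 9.56 and 8.79 on their 7 arrays, 10.29 and 9.83 in the BCR/ABLp190 leukaemias, and 10.11, 10.29, 10.08, 10.33 and 10.30 in B220+ cells. All 7 Pax5+/- arrays lay below every array of the other 5 groups. The difference from B220+ cells was -1.16 ± 0.22, a 2.23-fold lower level (adjusted p = 0.00179), while that of the BCR/ABLp190 leukaemias was -0.16 ± 0.32 (adjusted p = 0.74). Set directly against the 2 BCR/ABLp190 leukaemias, Dck differed by -1.0 and did not pass (limma, adjusted p = 0.138). It passed there when all 24 arrays were fitted (limma, adjusted p = 0.0261).

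In serine synthesis 1 of 3 genes rose. Psat1, its aminotransferase, rose from 9.46, 9.14, 9.30, 9.37 and 9.54 in B220+ cells to 9.66, 9.89 and 10.23 (lowest, median, highest), a difference of 0.56 ± 0.14 (adjusted p = 0.00941) with no overlap. Phgdh, which opens the route, spread from 8.15 to 9.79 over the 7 leukaemias and its difference of 0.65 ± 0.34 did not pass (adjusted p = 0.165). Psph, which closes it, differed by -0.02 with a 95% interval from -0.26 to 0.22.

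Of 6 folate enzymes 4 rose, in both the cytosolic and the mitochondrial arm. Mthfd1, the trifunctional cytosolic enzyme, lay at 8.03, 8.01, 7.92, 8.10 and 8.07 in B220+ cells and at 8.28, 9.32 and 10.10 (lowest, median, highest) in the Pax5+/- leukaemias. The BCR/ABLp190 leukaemias were at 10.39 and 9.64. All 9 leukaemias were above B220+ cells, by 1.34 ± 0.26 (adjusted p = 0.00182) and 1.99 ± 0.37 (adjusted p = 0.00237). Shmt2, the mitochondrial serine hydroxymethyltransferase, rose by 0.86 ± 0.14 (adjusted p = 0.000577), its cytosolic partner Shmt1 by 1.22 ± 0.31 (adjusted p = 0.00892) and the mitochondrial Mthfd1l by 0.82 ± 0.16 (adjusted p = 0.00188). Mthfd2, a mitochondrial dehydrogenase, differed by 0.64 ± 0.26 and did not pass (adjusted p = 0.0756), and passed in the BCR/ABLp190 leukaemias at 1.12 ± 0.37 (adjusted p = 0.0477). Aldh1l2 had a mean level between 5.34 and 5.59 in all 6 groups and passed in no comparison.

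**Figure D2:**
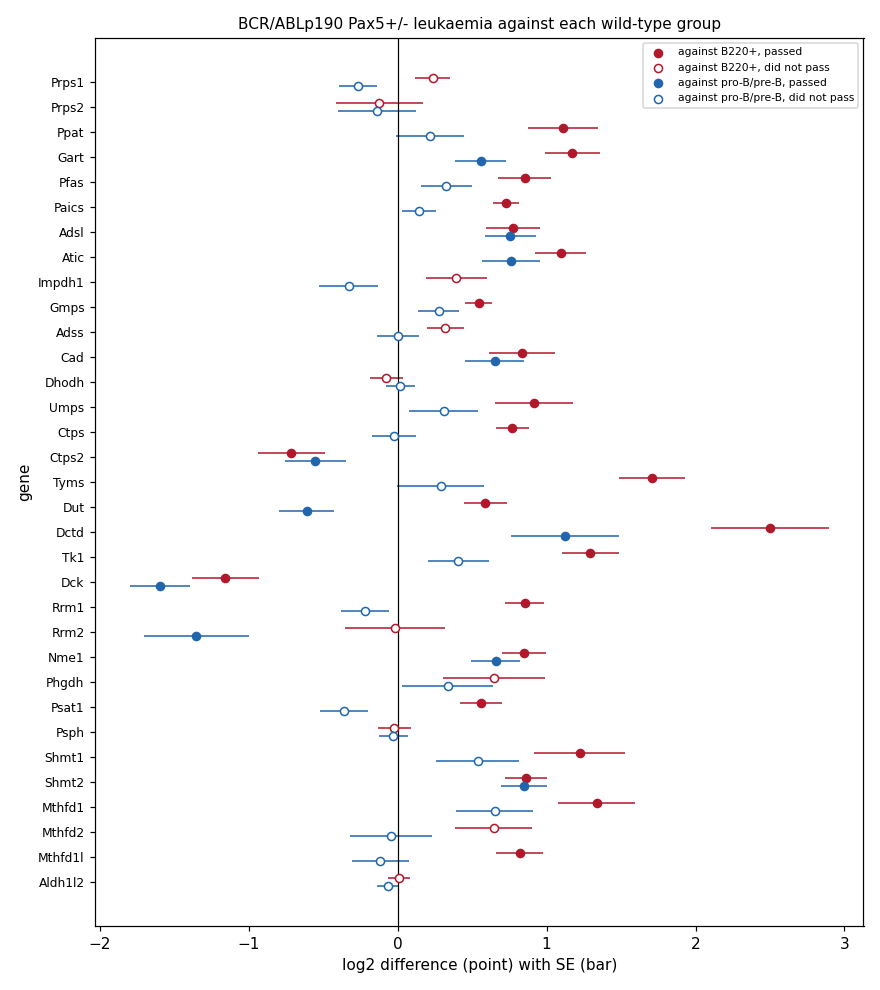
Log2 difference of each member (points, with SE bars) in the Pax5+/- leukaemias against B220+ cells (red) and against wild-type pro-B and pre-B cells (blue), filled where limma's adjusted p was under 0.05. Most red points lie right of 0 and Dctd is farthest at 2.50, while blue points lie on both sides, with Dck lowest at -1.60.

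Of 27 cell cycle genes outside the set, 23 were higher in the Pax5+/- leukaemias than in B220+ cells, with a median of 0.95, and their mean level per array was 10.08 to 10.49 against 8.90 to 9.64. Of 13 MYC and nucleolar genes, 8 were higher (median 0.70). Of 14 ATF4 and amino acid response genes, 3 were higher and 2 lower (median 0.16). Their part in the result was not tested.

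B220+ marrow includes B cells past the dividing stages, and pro-B and pre-B cells of wild-type mice are a second reference. Against them 14 members were lower in B220+ cells and 0 higher, where 8.84% of all genes passed (4.57% higher and 4.26% lower), and 25 of 27 cell cycle genes were lower (median -1.39). Dut (-1.20 ± 0.20), Rrm1 (-1.07 ± 0.17) and Psat1 (-0.92 ± 0.17) had small adjusted p-values among them (0.000519, 0.000445 and 0.00155). Leaving out B220+ array 1 or wild-type precursor 1 gave 9 calls, and leaving out B220+ array 2 or wild-type precursor 2 or 3 gave 8. Cell stage and set of arrays cannot be told apart in any comparison between sets.

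Against wild-type precursors the Pax5+/- leukaemias had 7 members higher and 4 lower, with a median of 0.14 against -0.05 for all genes. Of all genes 32.2% passed (12.7% higher and 19.6% lower), so that this count of 11 of 33 is close to the background. Of the genes called, 39.3% were higher (21.0% after median centring, with 7 members higher and 7 lower, and 54.5% after cyclic loess, with 9 higher and 3 lower). The higher members were Gart, Adsl, Atic, Cad, Dctd, Nme1 and Shmt2, and the lower ones Ctps2, Dut, Dck and Rrm2. The arrays did not overlap for 9 of 33 members, where 22% of all genes did not overlap.

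Atic lay at 10.39, 10.71 and 11.31 (lowest, median, highest) in the Pax5+/- leukaemias and at 10.06, 10.08, 10.04 and 10.04 in wild-type precursors. The ranges were apart, and Atic was higher by 0.76 ± 0.20 (adjusted p = 0.00564). Adsl was higher by 0.76 ± 0.17 (adjusted p = 0.0023) and Gart by 0.56 ± 0.17 (adjusted p = 0.0196). Shmt2 lay at 9.46, 9.85 and 10.44 against 8.95, 9.21, 9.17 and 9.0, with all 7 leukaemias above the precursors, and was higher by 0.85 ± 0.15 (adjusted p = 0.000337). Cad, at 8.48, 9.19 and 9.98 against 8.59, 8.56, 8.61 and 8.59, was higher by 0.65 ± 0.20 (adjusted p = 0.0164), with array 3 of the leukaemias below the precursors.

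Dck was 10.55, 10.82, 10.76 and 10.51 in wild-type precursors, above all 7 Pax5+/- leukaemias, and its difference of -1.60 ± 0.20 had the smallest p of any member in this comparison (adjusted p = 6.7e-06). Rrm2, at 11.57, 11.52, 11.66 and 11.75 in wild-type precursors, was also above all 7 (-1.36 ± 0.35, adjusted p = 0.00632). Dut was lower by 0.61 ± 0.19, which is the reverse of its direction against B220+ cells. Dctd was higher by 1.12 ± 0.36 (adjusted p = 0.0233). The cell cycle list had 0 genes higher and 3 lower against these precursors (median -0.38), and the MYC and nucleolar list 7 higher and 0 lower (median 0.47). Their part in the result was not tested.

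The BCR/ABLp190 leukaemias had 5 members higher and 0 lower than wild-type precursors, and 15 members did not overlap, where 46.7% of all genes did not. Of all genes 9.36% passed as higher, 12% as lower and 21.4% either way. Of the genes called, 43.7% were higher (25.4% after median centring and 58.0% after cyclic loess). The count of members called either way is thus not above the background, and that of members not overlapping is close to it. The 5 higher members by limma were Pfas (0.77 ± 0.24, adjusted p = 0.0263), Cad (0.93 ± 0.27, adjusted p = 0.0204) and Tk1 (1.05 ± 0.29, adjusted p = 0.0129), with Shmt2 (1.07 ± 0.21, adjusted p = 0.00144) and Mthfd1 (1.3 ± 0.35, adjusted p = 0.0129). Without BCR/ABLp190 leukaemia 1 the count was 3, namely Gart, Dctd and Shmt2. Without BCR/ABLp190 leukaemia 2 it was 3 higher (Tk1, Shmt2 and Mthfd1) and 4 lower (Prps2, Adss, Ctps2 and Psat1). With array weights 1 member, Shmt2, passed.

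**Figure D3:**
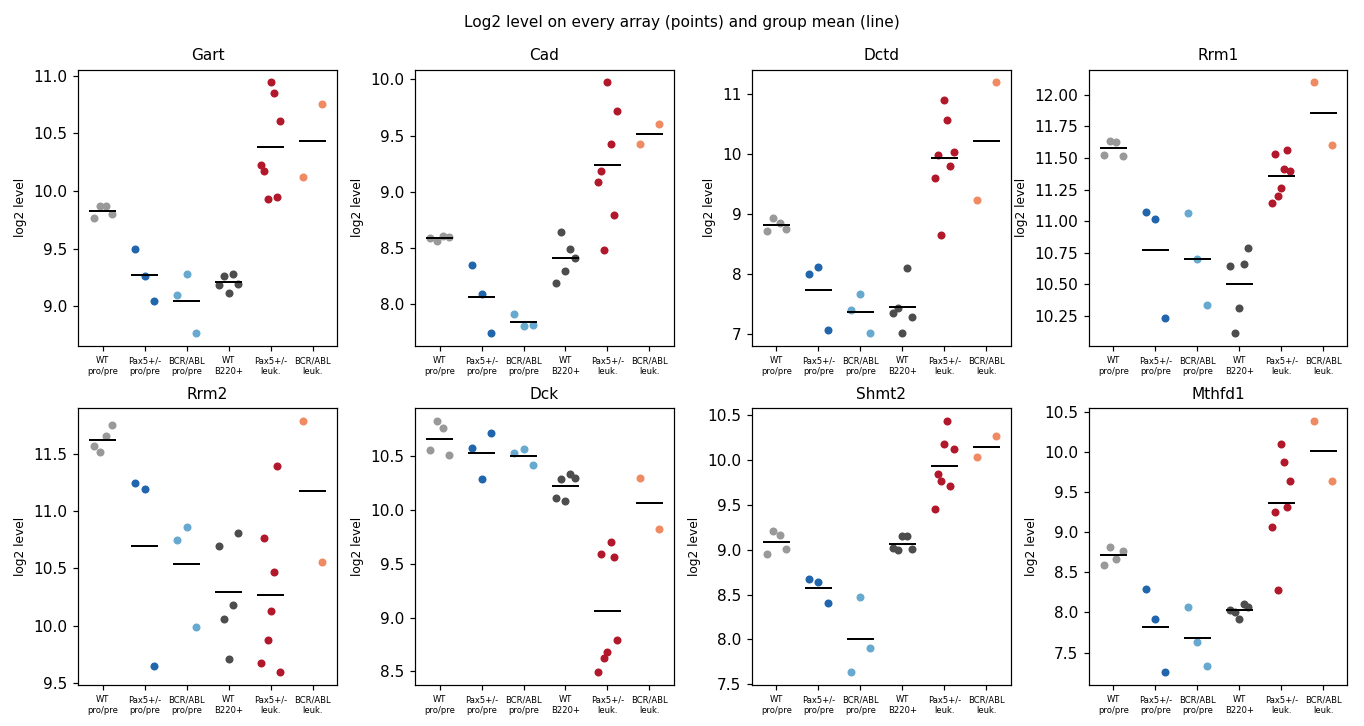
Log2 level of 8 members on every array (points, 24 per panel) in the 6 groups, with the group mean as a line and its own vertical scale in each panel. Gart, Cad, Dctd, Shmt2 and Mthfd1 have their highest means in the leukaemias, Rrm2 in wild-type pro-B and pre-B cells, and the 7 Pax5+/- leukaemias are below all other arrays for Dck.

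Before leukaemia the members called were lower, but the reference was wild-type precursors and not the B220+ cells used first for the leukaemias. B220+ cells themselves had 14 members called lower than wild-type precursors. Against wild-type precursors the Pax5+/- leukaemias had members called both ways. In the BCR/ABLp190 precursors 25 of 33 members were lower than in wild-type precursors and 0 were higher, where 15.5% of all genes passed as lower and 27.1% either way. Of the genes called, 42.9% were higher (31.6% after median centring and 54.6% after quantile scaling). The members called lower were 15 after quantile scaling and 14 after cyclic loess. The members' median was -0.78, against 0.04 for all genes, and 28 of 33 members did not overlap, where 42.2% of all genes did not. In the Pax5+/- precursors 7 members were lower and 0 higher, where 2.94% of all genes passed as lower and 4.17% either way, with a median of -0.55 against 0.03 for all genes. Here 29.4% of the genes called were higher, and 53.3% after quantile scaling. The members called lower were 3 after quantile scaling, 4 after cyclic loess, 12 among genes above the median level and 16 with array weights, and 1 with the replicate number as a block. The 7 were Prps1, Gart, Cad, Umps, Ctps, Dctd and Psat1, and 21 of 33 members did not overlap, where 24.3% of all genes did not. Both comparisons use the same 4 wild-type arrays.

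Both PRPP synthetases and all 6 inosine monophosphate genes fell in the BCR/ABLp190 precursors. Prps1 lay at 10.02, 10.12, 10.19 and 9.96 in wild-type precursors, at 9.04, 9.06 and 8.46 in BCR/ABLp190 precursors and at 9.50, 9.21 and 9.31 in Pax5+/- precursors. All 6 arrays with the oncogene lay below the wild type. The differences were -1.22 ± 0.14 (adjusted p = 0.00237) and -0.73 ± 0.14 (adjusted p = 0.0291). Prps2 fell by 0.62 ± 0.13 in the BCR/ABLp190 precursors. Gart, at 9.76, 9.87, 9.87 and 9.80 in wild-type precursors, was at 9.09, 9.28 and 8.77 in BCR/ABLp190 precursors (-0.78 ± 0.13, adjusted p = 0.00508) and at 9.50, 9.26 and 9.05 in Pax5+/- precursors (-0.55 ± 0.13, adjusted p = 0.0455). Adsl (-0.85 ± 0.14, adjusted p = 0.00479) and Ppat (-1.21 ± 0.20, adjusted p = 0.00486) had the smallest adjusted p-values of the 6 in the BCR/ABLp190 precursors. The branch genes Gmps, Impdh1 and Adss all fell there too, by 0.79, 0.57 and 0.57.

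Pyrimidine synthesis had the most calls in the Pax5+/- precursors, 3 of 5. Umps lay at 9.12, 9.30, 9.22 and 9.13 in wild-type precursors, at 8.62, 8.39 and 8.16 in Pax5+/- precursors and at 8.30, 8.44 and 8.06 in BCR/ABLp190 precursors, without overlap. It fell by 0.80 ± 0.12 (adjusted p = 0.0143) and by 0.92 ± 0.12 (adjusted p = 0.0029). Cad was at 8.59, 8.56, 8.61 and 8.59 in the wild type and at 8.34, 8.09 and 7.74 in Pax5+/- precursors, a difference of -0.53 ± 0.12 (adjusted p = 0.0387). Ctps fell by 0.93 ± 0.21 (adjusted p = 0.0401) and by 1.13 ± 0.21 (adjusted p = 0.00701). Ctps2 and Dhodh passed in neither group.

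Among deoxynucleotide genes Dctd again had the largest difference. It lay at 8.72, 8.93, 8.85 and 8.75 in wild-type precursors, at 8.0, 8.12 and 7.06 in Pax5+/- precursors and at 7.40, 7.67 and 7.01 in BCR/ABLp190 precursors. Every array with the oncogene was below the wild type, by 1.09 ± 0.24 (adjusted p = 0.0395) and 1.45 ± 0.24 (adjusted p = 0.00508). Rrm1, Dut, Nme1 and Rrm2 also fell in the BCR/ABLp190 precursors, Rrm2 at the edge of the threshold (-1.09 ± 0.36, adjusted p = 0.0498). Tyms, Tk1 and Dck passed in neither group, and Dck differed by -0.14 ± 0.11 and -0.16 ± 0.11.

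Psat1 fell in both groups, by 1.10 ± 0.19 in Pax5+/- precursors (adjusted p = 0.0226) and by 0.99 ± 0.19 in BCR/ABLp190 precursors (adjusted p = 0.00839), while Phgdh and Psph passed in neither. Of the folate enzymes 5 of 6 fell in the BCR/ABLp190 precursors. Shmt2 fell by 1.08 ± 0.17 (adjusted p = 0.00479), from 8.95, 9.21, 9.17 and 9.0 to 7.64, 8.48 and 7.90. In the Pax5+/- precursors 0 of 6 passed, and Mthfd1 had the smallest p of them (-0.89 ± 0.23, adjusted p = 0.062). At an unadjusted p under 0.05, 20 of 33 members passed in this comparison, where 23.2% of all genes did.

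These counts depended on single arrays. Array 3 of each oncogene-bearing group was the lowest of its group, for 27 of 33 members in the BCR/ABLp190 precursors and 23 of 33 in the Pax5+/- precursors. Without BCR/ABLp190 precursor 3 there were 12 calls. Without BCR/ABLp190 precursor 2 or wild-type precursor 1 there were 16, and without wild-type precursor 2 or 3 there were 15. For the Pax5+/- precursors, 3 members passed without Pax5+/- precursor 2 or wild-type precursor 4, 1 without wild-type precursor 1 and 0 without wild-type precursor 2 or 3. The mean level of the cell cycle list was lowest on the same arrays 3, at 9.26 and 8.98, where the other oncogene-bearing precursors had 9.88 to 10.25 and the wild type 10.58 to 10.76.

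Of 27 cell cycle genes 13 were lower and 0 higher in the BCR/ABLp190 precursors (median -0.80). In the Pax5+/- precursors limma called 0 of them, with 19 at an unadjusted p under 0.05 and the same median of -0.80. Of 13 MYC and nucleolar genes 12 were lower in the BCR/ABLp190 precursors and 3 in the Pax5+/- precursors. T and NK markers were lower for 6 of 10 genes and 3 of 10 genes, with a mean level of 6.76 to 7.61 and 6.99 to 7.66 against 7.90 to 8.36 in the wild type. The mean of the neutrophil list was 7.22 to 10.53 in BCR/ABLp190, 7.12 to 7.42 in Pax5+/- and 7.12 to 9.05 in wild-type precursors. That of the erythroid list was 8.27 to 9.57, 7.69 to 7.92 and 8.46 to 8.86 in the same order. Their part in the result was not tested. The 3 BCR/ABLp190 precursors lacked Xist signal and the 4 wild-type precursors had it, so sex and oncogene cannot be told apart in that comparison.

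**Figure D4:**
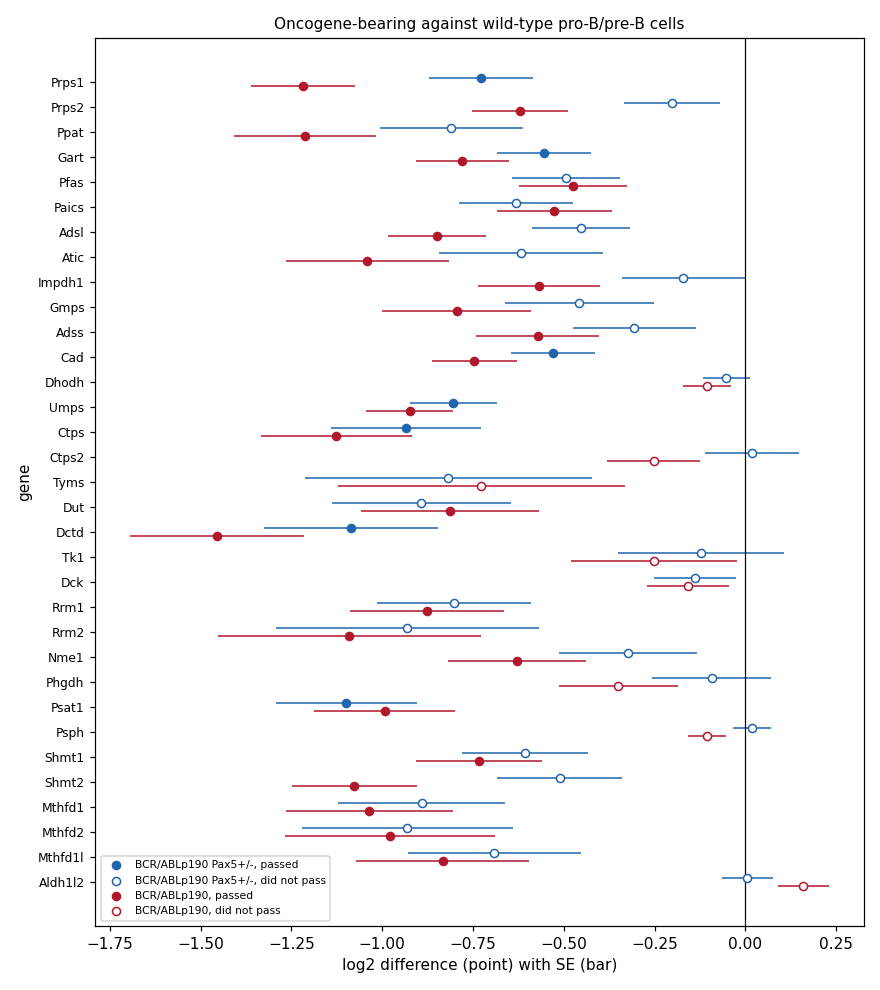
Log2 difference of each member (points, with SE bars) in Pax5+/- precursors (blue) and BCR/ABLp190 precursors (red) against wild-type pro-B and pre-B cells, filled where limma's adjusted p was under 0.05. Most points lie left of 0, Dctd is lowest at -1.45, and the points of Dhodh, Psph and Aldh1l2 lie near 0.

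The groups that share the oncogene differ in the labels by Pax5 genotype. Limma called 0 of 33 members between the Pax5+/- and BCR/ABLp190 leukaemias, where 1.87% of all genes passed (0.712% higher and 1.16% lower), and 4 members (Dut, Tk1, Dck and Rrm1) had an unadjusted p under 0.05, which is 12.1% of members against 13.9% of all genes. The arrays did not overlap for 2 members, Dck and Rrm1, where 8.54% of all genes did not. Dck had the smallest p. All 7 Pax5+/- leukaemias lay below the 2 BCR/ABLp190 leukaemias, and the difference was -1.0 ± 0.31 with a 95% interval from -1.66 to -0.33 (adjusted p = 0.138). Fitted with all 24 arrays, Dck passed (limma, adjusted p = 0.0261). With array weights and with the replicate block it did not (limma, adjusted p = 0.633 and 0.321). Its difference was -0.76 without BCR/ABLp190 leukaemia 1 and -1.23 without BCR/ABLp190 leukaemia 2. The 95% interval of the difference ran from -1.45 to 0.89 for Dctd and from -0.60 to 0.50 for Gart. Without BCR/ABLp190 leukaemia 2 there were 4 calls (Prps2, Adss, Dut and Tk1). The neutrophil markers were lower in the Pax5+/- leukaemias for 8 of 13 genes, a difference whose part was not tested.

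Between the precursors limma also called 0 of 33 members, where 0.0251% of all genes passed (0.015% higher and 0.01% lower). At an unadjusted p under 0.05 there were 4 members, Prps1, Prps2, Adsl and Shmt2, all at higher levels in the Pax5+/- precursors, which is 12.1% of members against 14.3% of all genes. Shmt2 differed by 0.57 ± 0.18, with a 95% interval from 0.15 to 0.98 (adjusted p = 0.246), and Prps1 by 0.49 ± 0.15, with an interval from 0.15 to 0.83 (adjusted p = 0.233). The change of the Pax5 difference from precursors to leukaemia was called for 0 of 33 members, where 0.692% of all genes passed, with 3 members (Prps1, Dck and Shmt2) at an unadjusted p under 0.05, which is 9.09% against 13.1% of all genes. For Dck it was -1.02 ± 0.37 (adjusted p = 0.226). For Tk1 it was -0.77 with all arrays (limma, adjusted p = 0.391), -1.40 without BCR/ABLp190 leukaemia 2 and -0.14 without BCR/ABLp190 leukaemia 1. With the mean of its 2 probe sets it was -0.58 (limma, adjusted p = 0.578). Pax5+/- and BCR/ABLp190 precursors had means of 8.91 and 8.78 by the Tk1 probe set used and 8.31 and 8.53 by the other.

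Leukaemias were also set against precursors of the same genotype. In Pax5+/- mice 21 members were higher and 2 lower in leukaemia, with a median of 0.74 against -0.08 for all genes. Of all genes 16.4% passed as higher, 28.4% as lower and 44.7% either way. The lower members were Dck (-1.46 ± 0.22, adjusted p = 4.62e-05) and Ctps2 (-0.57 ± 0.23, adjusted p = 0.0464). Shmt2 (1.36 ± 0.17, adjusted p = 5.61e-06), Atic (1.38 ± 0.21, adjusted p = 6.16e-05), Adsl (1.21 ± 0.19, adjusted p = 6.45e-05) and Dctd (2.21 ± 0.40, adjusted p = 0.000261) were among the higher ones. In BCR/ABLp190 mice 22 members were higher and 0 lower (median 1.04), and 25 members did not overlap, where 61.6% of all genes did not. Of all genes 18.1% passed as higher, 27.6% as lower and 45.7% either way. Shmt2 differed by 2.14 ± 0.22 (adjusted p = 1.49e-06), Mthfd1 by 2.34 ± 0.37 (adjusted p = 0.00011) and Dctd by 2.86 ± 0.53 (adjusted p = 0.000375). All 6 inosine monophosphate genes were higher in leukaemia in both genotypes. The difference from wild type at the leukaemic stage minus that at the precursor stage was called for 25 of 33 members in Pax5+/- mice, where 30.2% of all genes passed, and for 24 of 33 in BCR/ABLp190 mice, where 37.4% passed. These contrasts were added after seeing the data, and each rests on other wild-type cells at each stage.

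Pairs of enzymes that do the same or a related step were compared within arrays. The log2 ratio of Ctps to Ctps2 was -1.30 ± 0.32 (SD, n = 7) in the Pax5+/- leukaemias, -2.78 ± 0.14 (SD, n = 5) in B220+ cells and -1.83 ± 0.13 (SD, n = 4) in wild-type precursors. The shift against B220+ cells was 1.48, with all 7 leukaemias above all 5 controls, at an exact permutation p of 0.00253 (two-sided, the smallest this design can give), or 0.0101 after adjustment over the 8 ratio tests. Since Ctps was higher and Ctps2 lower there, each without overlap, this separation and its p follow from the levels given above and are no further evidence. Against wild-type precursors the shift was 0.53, with an exact permutation p of 0.0182 (adjusted 0.0485). Only unequal change of the 2 genes follows from such a ratio.

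Prps2 spanned 10.44, 10.86 and 11.44 (lowest, median, highest) in the Pax5+/- leukaemias and 10.90 to 11.14 in B220+ cells, with overlap. Shmt1 lay at 8.06, 8.69 and 9.64 and at 7.48 to 7.73, and Mthfd1l at 8.73, 9.37 and 9.80 and at 8.49 to 8.62, both without overlap. The ratio of Prps1 to Prps2 was 0.36 higher in the Pax5+/- leukaemias than in B220+ cells (exact permutation p = 0.00253, adjusted 0.0101) and 0.12 lower than in wild-type precursors (adjusted 0.352 by the same test). For Mthfd1 over Mthfd1l, the cytosolic over the mitochondrial enzyme, the shifts were 0.52 (exact permutation p = 0.0379, adjusted 0.0606) and 0.77 (exact permutation p = 0.0242, adjusted 0.0485). For Shmt1 over Shmt2 they were 0.36 and -0.31, and neither passed (exact permutation tests, adjusted p = 0.121 and 0.187). With 1 array fewer the smallest p is larger, and the adjusted values of the shifts against wild-type precursors for Ctps over Ctps2 and Mthfd1 over Mthfd1l reached 0.1 and 0.107. Without Pax5+/- leukaemia 3 the shifts against B220+ cells passed for Shmt1 over Shmt2 (0.46, adjusted p = 0.0381) and Mthfd1 over Mthfd1l (0.65, adjusted p = 0.0115), both by exact permutation tests.

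**Figure D5:**
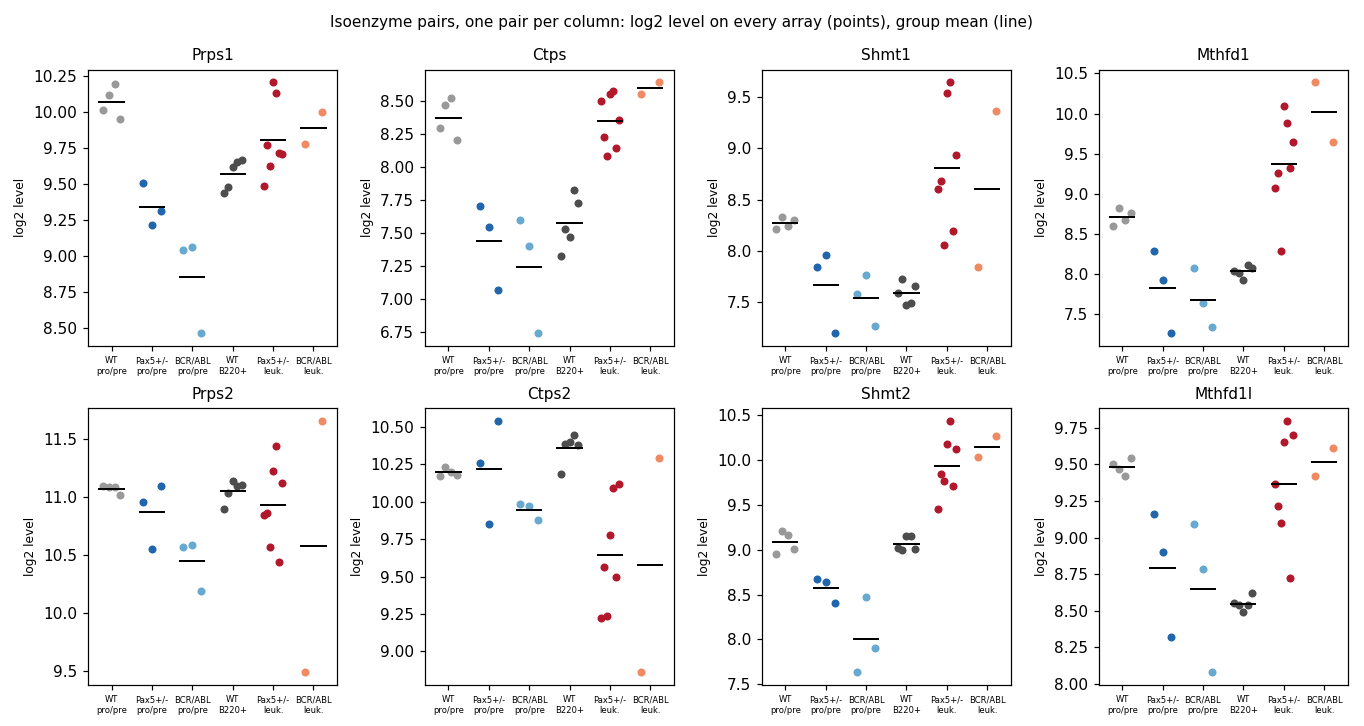
Log2 level on every array (points) with the group mean (line) for 4 pairs of related enzymes, one pair per column and its own vertical scale in each panel. In the second column the Pax5+/- leukaemias lie above B220+ cells for Ctps and below them for Ctps2.

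All 4 groups with the oncogene spread more widely than the wild-type samples. The median SD over the 33 members was 0.37 in the Pax5+/- and in the BCR/ABLp190 leukaemias, 0.35 in the Pax5+/- and 0.28 in the BCR/ABLp190 precursors, 0.11 in B220+ cells and 0.09 in wild-type precursors. Leukaemia 5 was the highest of the 7 for 15 members and leukaemia 4 for 10, while leukaemia 3 was the lowest for 17. The mean level over all 33 members was 9.85 and 9.76 on arrays 5 and 4 and 9.07 on array 3. Over the 7 arrays the mean of the MYC and nucleolar list spanned 9.76 to 10.75. The cell cycle list spanned 10.08 to 10.49 and the pro-B and pre-B list 7.72 to 10.24. The erythroid list spanned 7.18 to 11.16 and the monocyte and macrophage list 7.72 to 10.17. How any of these lists goes with the members was not tested. The 2 BCR/ABLp190 leukaemias also diverged: leukaemia 2 was the higher one for 23 members, and Prps2 lay at 9.49 and 11.65 and Dctd at 9.23 and 11.20.

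Genes of the same pathways outside the set gave 26 calls of 49 measured in the Pax5+/- leukaemias against B220+ cells, where 12.9% of all genes passed as higher and 18.9% as lower. In purine salvage and breakdown 9 of 14 were higher and 2 lower, led by the purine nucleoside phosphorylase Pnp (2.33 ± 0.19, adjusted p = 2.55e-06) and the salvage enzyme Hprt (0.92 ± 0.11, adjusted p = 4.43e-05). In pyrimidine salvage and breakdown 2 of 12 were higher and 4 lower, with the mitochondrial thymidine kinase Tk2 lower (-1.25 ± 0.11, adjusted p = 4.76e-06) and the uridine-cytidine kinase Uck2 higher (1.65 ± 0.21, adjusted p = 9.23e-05). Of 8 other deoxynucleotide genes 3 were higher and 1 lower. The lower one was Rrm2b, the p53-induced small subunit of ribonucleotide reductase, at -2.44 ± 0.13 (adjusted p = 1.31e-07), and Nme4 was higher by 1.53 ± 0.29 (adjusted p = 0.00159). In folate, glycine and methionine metabolism 4 of 15 were higher and 1 lower, with Mat2b at -0.69 ± 0.07 (adjusted p = 1e-05) and the folate carrier Slc19a1 at 0.90 ± 0.25 (adjusted p = 0.0154).

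In the BCR/ABLp190 precursors against wild type the same 4 lists had 5 of 14, 3 of 12, 4 of 8 and 6 of 15 genes lower, and 1 gene of the last list higher, where 15.5% of all genes passed as lower and 11.6% as higher. Uck2 fell by 1.14 ± 0.20 (adjusted p = 0.00604), Pnp by 1.18 ± 0.24 (adjusted p = 0.00913) and Ggh, which cuts glutamate tails off folates, by 1.01 ± 0.07 (adjusted p = 0.00142). In the Pax5+/- precursors 5 of 49 were lower and 0 higher, where 2.94% of all genes passed as lower, among them Ggh (-0.98 ± 0.07, adjusted p = 0.00213), Adk (-1.02 ± 0.19, adjusted p = 0.0249) and Uck2 (-1.01 ± 0.20, adjusted p = 0.0288).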

How the data were processed

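RNA of 24 mouse samples was measured on 1 array each. The values are log2 expression levels per probe set deposited by the authors, made with RMA in oligo per the submitters' processing notes, with versions not given in the sources used here. The notes do not say if the 24 arrays went through RMA as 1 batch.

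Of 35556 probe sets, 21789 carried 1 gene symbol, 1621 several and 12146 none; 21698 probe sets matched a RefSeq gene. These gave 19938 genes. For the 999 genes with several probe sets, the brightest over 24 arrays was used. Limma 3.58.1 in R 4.3.3 was fitted to all genes with Benjamini-Hochberg adjustment over all of them (threshold 0.05). The leukaemia and B220+ arrays shared one fit and the precursor arrays another, while comparisons between these sets used all 24 arrays. The fit was tested on simulated data. Figures, ratios and exact permutation tests used Python 3.11.15, scipy 1.17.1 and matplotlib 3.10.9. The number of arrays limits the precision.

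Members and lists were chosen with earlier results of these data known, and all members are accounted for. Within a role, up to 4 called members were named by adjusted p, with others added as examples, and array values, for 7 arrays mostly as lowest, median and highest, are given for the member with the largest difference. The 2 contrasts of stage by genotype against wild type were added after seeing the data. Alternatives covered scaling, array weights, a filter on low levels, the groups fitted, a replicate block and leaving out each array. Equal replicate numbers paired Pax5+/- and BCR/ABLp190 precursors by the rule used, since same-numbered deviations correlated at 0.208, 0.213 and 0.25, although the labels name no shared litter.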

Additional observations from a re-analysis of the deposited data

Results flagged for a closer look

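The difference from wild type changed between stages for many members. Leukaemia against B220+ cells, minus precursors against wild-type precursors, was called by limma for 25 of 33 members in Pax5+/- mice, where 30.2% of all genes passed, and for 24 of 33 in BCR/ABLp190 mice, where 37.4% passed. Both contrasts share their wild-type arrays and were chosen after seeing the data. Stage, control population and set of arrays cannot be told apart in them.

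In Pax5+/- mice the contrast for inosine monophosphate synthesis was 1.92 for Ppat, 1.73 for Gart, 1.35 for Pfas, 1.36 for Paics, 1.22 for Adsl and 1.71 for Atic, and it was 0.96 for Prps1, 1.00 for Gmps and 0.62 for Adss. Among pyrimidine genes it was 1.36 for Cad, 1.72 for Umps and 1.70 for Ctps. For deoxynucleotide genes it was 3.59 for Dctd, 2.52 for Tyms, 1.48 for Dut, 1.42 for Tk1, 1.66 for Rrm1 and 1.17 for Nme1, and Dck alone was called below 0, at -1.02. Psat1 was at 1.66, Shmt1 at 1.83, Shmt2 at 1.37, Mthfd1 at 2.23, Mthfd2 at 1.57 and Mthfd1l at 1.51.

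In BCR/ABLp190 mice the values were 2.56 for Ppat, 2.01 for Gart, 1.77 for Pfas, 1.31 for Paics, 1.49 for Adsl and 1.88 for Atic, with 1.53 for Prps1 and 1.25 for Gmps. Cad was at 1.86, Umps at 1.65 and Ctps at 2.15. Dctd was at 4.23, Tyms at 2.85, Dut at 1.92, Tk1 at 2.19, Rrm1 at 2.22, Rrm2 at 1.97 and Nme1 at 1.32. Psat1 was at 1.46, Shmt1 at 1.75, Shmt2 at 2.16, Mthfd1 at 3.02, Mthfd2 at 2.10 and Mthfd1l at 1.80.

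In 6 of 99 groups of levels tested 1 array stood apart from the rest, where chance does so in about 1 in 20. Dut was 8.63 on Pax5+/- leukaemia 3, with the next array at 8.99, and Psph was 7.34 on Pax5+/- leukaemia 6, with the next at 7.84. In B220+ cells Adss was 10.39 on array 4 (next 10.29), Dhodh 7.57 on array 3 (next 7.44) and Ctps2 10.18 on array 1 (next 10.38). Prps2 was 11.02 on wild-type precursor 4 (next 11.08).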

How the results depend on the processing

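Counts of members called that changed by over 1.5 times were as follows. With array weights they were 11 for BCR/ABLp190 leukaemias against B220+ cells, 16 for Pax5+/- against wild-type precursors, 1 for BCR/ABLp190 leukaemias against wild-type precursors, 14 for BCR/ABLp190 leukaemias against BCR/ABLp190 precursors and 22 for B220+ cells against wild-type precursors. Quantile scaling gave 3 for Pax5+/- and 15 for BCR/ABLp190 precursors against wild type, and cyclic loess 4 and 14, and 8 for BCR/ABLp190 leukaemias against wild-type precursors. Genes above the median level gave 12 for Pax5+/- precursors. Only the compared groups gave 10 for BCR/ABLp190 leukaemias against precursors and 23 for B220+ cells against wild-type precursors, and all 24 arrays gave 1 between the leukaemias. The replicate block gave 1 for Pax5+/- precursors against wild type, and 0 between the paired precursors, as without it. Leaving out 1 array gave 22 to 24 (Pax5+/- leukaemias against B220+ cells), 13 to 17 (BCR/ABLp190 leukaemias against B220+ cells), 0 to 4 (between leukaemias), 0 to 8 and 12 to 23 (Pax5+/- and BCR/ABLp190 precursors against wild type), 0 to 0 (between precursors), 8 to 12 and 3 to 7 (Pax5+/- and BCR/ABLp190 leukaemias against wild-type precursors), 18 to 23 and 17 to 24 (each leukaemia against its precursors), 8 to 12 (B220+ cells against wild-type precursors), 0 to 1 (change of the Pax5 difference), and 24 to 25 and 23 to 26 (stage contrasts of both genotypes). Ratio shifts against B220+ cells and wild-type precursors ranged from 1.39 to 1.56 and 0.43 to 0.61 for Ctps over Ctps2, from 0.42 to 0.65 and 0.67 to 0.90 for Mthfd1 over Mthfd1l, from 0.29 to 0.41 and -0.19 to -0.08 for Prps1 over Prps2, and from 0.28 to 0.46 and -0.39 to -0.21 for Shmt1 over Shmt2. Without BCR/ABLp190 leukaemia 2 the sign turned and the value passed for Adss against B220+ cells (range over omissions -0.41 to 0.47) and for Prps2 against BCR/ABLp190 precursors (-0.96 to 1.21) and in the stage contrast (-0.94 to 1.22). Members that passed neither way also turned, such as Phgdh against B220+ cells (0.44 to -0.57). The cause of these changes was not tested.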

Other observations

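Against wild-type precursors, some genes of these pathways outside the set were called in the Pax5+/- leukaemias. Of all genes 32.2% passed in this comparison (12.7% higher and 19.6% lower). No count is given for these pathways, so the genes named are examples and not a result about the pathways. Rrm2b was lower by -2.43 (adjusted p = 4.13e-09 by limma), which is close to its difference from B220+ cells, and the nucleotidase Nt5c2 differed by -1.03 (adjusted p = 3.4e-06). Guk1, the guanylate kinase, was higher by 0.86 (adjusted p = 2.63e-05), Nme4 by 1.09 (adjusted p = 0.00272) and the mitochondrial folate carrier Slc25a32 by 0.46 (adjusted p = 0.0263). Between the leukaemias 1 of the 49 genes was called, where 1.87% of all genes passed. It was the interferon-induced Cmpk2, which was lower in the Pax5+/- leukaemias (-1.65, adjusted p = 0.0261).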
